A study of Rattus norvegicus with 6 samples.

Results

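miR-451 and miR-144 are made from a pair of neighbouring hairpins that developing red blood cells transcribe together, and miR-486 is a further miRNA that is abundant in red cells. The custom vertebrate miRNA arrays of this study carried 12 features for these miRNAs among 5560 in all. A feature is a miRNA sequence printed on the array as a set of replicate spots. The 12 features were chosen by name: those named rno-miR-451 or rno-miR-144 in the list of rat names, and those of other species named miR-451, miR-144 or miR-486, with passenger strands (names that end in an asterisk) left out. They comprised 4 features for miR-451, 7 for miR-144 and 1 for miR-486, of which 2 carried a rat name and 10 were named for other species. Each had 2 spots per array.

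The animals were 6 male rats of the strain Fisher 344 with the genotype Big Blue Transgenic, and the kidney RNA of each was hybridised to 1 array. Big Blue rats carry a bacteriophage shuttle vector with a reporter gene for scoring mutations, and animals of both groups carried it. Control animals 13, 14 and 15 were untreated, and an age of 6 weeks is given for them as for the treated animals. Animals 19, 20 and 21 were given the sodium salt of aristolochic acid (AA), a plant nephrotoxin and carcinogen that forms DNA adducts, by gavage from 6 weeks of age. They received 10.0 mg/kg per dose, 5 doses weekly over 12 weeks, and were killed 1 day after the last dose. The sources used here do not say whether the kidneys were flushed of blood. The question put to the arrays was how much signal of red cell miRNAs each kidney RNA held, and whether AA and control kidneys differed in it.

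Red cell precursors switch on the miR-144 and miR-451 hairpins under the erythroid factor GATA1, and mature red cells, which have no nucleus, keep large amounts of miR-451. miR-451 is unusual in its making: its short hairpin is not cut by Dicer but by Argonaute 2, so that the mature strand runs on from the stem into the loop. miR-144 is cut by Dicer in the usual way and is known to act on the antioxidant factor Nrf2. miR-486 lies in an intron of the ankyrin gene Ank1 and is found in red cells, skeletal muscle and heart. In work on blood plasma or serum, miR-451 is often set against miR-23a, which red cells hold little of, to follow the release of red cell contents.

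The target sequences read from the array files are shown first, because detection differed between features that differ by a few bases. Capitals mark the seed, bases 2 to 8 from the 5′ end, which sets most of a miRNA's choice of targets.
rno-miR-451: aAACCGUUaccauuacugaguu
oan-miR-451: aAACCGUUaccauuacugaguuu
eca-miR-451: aAACCGUUaccauuacuguguu
pma-miR-451: aAACCGUUaccauuauuguaacca
rno-miR-144: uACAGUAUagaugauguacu
pma-miR-144: uACAGUAUauaugaugugcugc
gga-miR-144: cUACAGUAuagaugauguacuc
hsa-miR-486-5p: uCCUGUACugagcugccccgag

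The target of rno-miR-451 was identical to RefSeq rno-miR-451-5p, and that of rno-miR-144 to rno-miR-144-3p. The platypus feature oan-miR-451 held all 22 bases of the rat miR-451 and 1 more base at its 3′ end, and its whole length is also present in the rat hairpin. Positions below are counted from 1 at the 5′ end of the rat sequence, with the rat base first. The horse feature eca-miR-451 differed by the substitution A19U, and the lamprey feature pma-miR-451 by 5 substitutions (C16U, A19U, G20A, U21A and U22C). Of the 6 miR-144 features of other species, 5 held the whole rat sequence with no substitution and differed at their ends, the chicken feature gga-miR-144 by 1 extra base at each end. The lamprey feature pma-miR-144 carried G10U and A18G. The seed of rno-miR-451 was present on 4 features and that of rno-miR-144 on 6, and all of these were among the 12. The seed of hsa-miR-486-5p was present on 1 feature, itself.

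In RefSeq on GRCr8 the Mir144 hairpin lies at chr10:63459397-63459479 on the plus strand, with the mature miR-144-3p at chr10:63459446-63459465. The Mir451a hairpin follows on the same strand at chr10:63459569-63459640, with the mature miR-451-5p at chr10:63459585-63459606. The hairpins are 89 bases apart and lie in no annotated gene that spans them, between Flot2 and Eral1, the latter starting 133 bases past Mir451a. The hairpins are printed to show where the mature strands sit, in capitals: miR-144-3p in the 3′ arm, and miR-451-5p starting in the 5′ arm.
Mir144: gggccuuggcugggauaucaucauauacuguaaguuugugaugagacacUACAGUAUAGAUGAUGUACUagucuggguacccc
Mir451a: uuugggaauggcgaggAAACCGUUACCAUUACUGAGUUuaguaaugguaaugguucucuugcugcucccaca

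The arrays were unequal in brightness, and 1 stood apart. Signal is given here as scanner intensity minus the median of the empty spots in the same block of the array. Its mean over all 5560 features was between 264 and 485 on 5 arrays and 149 on that of AA animal 20. A feature counted as above background on an array where its signal passed 3 robust SDs of the empty spots, and 69.1% of the 1132 features tested did so on array AA 20 against 92.8 to 98.8% on the other 5. Kidney epithelial miRNAs were measured on every array: 13 of the 14 listed, among them miR-192 and miR-194, were above background on all 6. The remaining member, miR-204, was above background on 4 arrays, the exceptions being AA 20 and AA 21. No other tissue was hybridised, so the kidney origin of the RNA could not be tested by these values. No batch, slide or scan is named in the labels, so none could be tested.

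miR-451 was measured in kidney RNA of both groups. The signal of rno-miR-451 was 177, 52.6 and 40.0 in control animals 13, 14 and 15, and 155, 11.4 and 13.5 in AA animals 19, 20 and 21. It was above background in all 3 control animals and in 2 of the 3 AA animals, the exception being AA 20. On array AA 19 it stood 61.4 robust SDs above the empty spots, against 12.1 to 26.8 in the controls and 4.64 on array AA 21. These units measure detection and not level, since the robust SD differs between arrays. It was 2.53 on array AA 19 and 6.61 on that of control 13, where the signal itself was higher.

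The intensity table that the authors deposited, which is background-subtracted and normalized between arrays, gave rno-miR-451 66.3, 48.4 and 50.4 in the controls and 75.7, 8.36 and 16.3 in the AA animals. On this scale the mean was 55.0 ± 9.80 (SD, n = 3) in control and 33.4 ± 36.8 (SD, n = 3) in AA. The 3 controls lay close together, while AA 19 was above every control and AA 20 and AA 21 were below every control. By the study's own detection limit, an intensity of 32 on this scale, rno-miR-451 was detected on 4 arrays. These were the arrays of the 3 controls and of AA 19, so AA 21 passed the background limit of this work but not that of the study.

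A further feature of the same miRNA gave the same order of animals in scanner signal, but not in the deposited table. The signal of oan-miR-451 was 51.8, 18.4 and 17.0 in the controls and 49.9, 3.04 and 7.16 in AA 19, 20 and 21, above background on 4 arrays. In the deposited table it was 15.8, 19.3 and 21.1 in the controls against 38.5, 0.0066 and 5.14 in the AA animals, with control 13 the lowest of the controls here and the highest of them for rno-miR-451. AA 19 was again above every control, and AA 20 and AA 21 below every control. Since its target contains the whole rat miR-451, the pair of features reads the same RNA and is not independent evidence. Their normalized log2 signals correlated across the 6 arrays with r = 0.958 and rho = 0.943, and with r = 0.922 without AA 20, given as a description.

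The other miR-451 features stayed at background. eca-miR-451, with its mismatch at base 19, had signals between -0.61 and 13.6 and passed the limit on array AA 21, at 8.84, which is 3.03 robust SDs. pma-miR-451 had signals between -6.86 and 3.08 and passed on none.

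miR-486 was measured on 5 of the 6 arrays. The signal of hsa-miR-486-5p was 160, 52.7 and 71.3 in the controls and 147, 7.22 and 44.6 in AA 19, 20 and 21, with AA 20 not above background. The 2 spots of array AA 20 read 0.055 and 14.4. The deposited values were 64.2, 59.7 and 133.6 in the controls and 81.4, 0.0096 and 81.4 in the AA animals, so that AA 19 and AA 21 lay within the range of the controls and AA 20 was near 0. AA 21 was thus low in miR-451 and within the control range in miR-486.

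**Figure D1:**
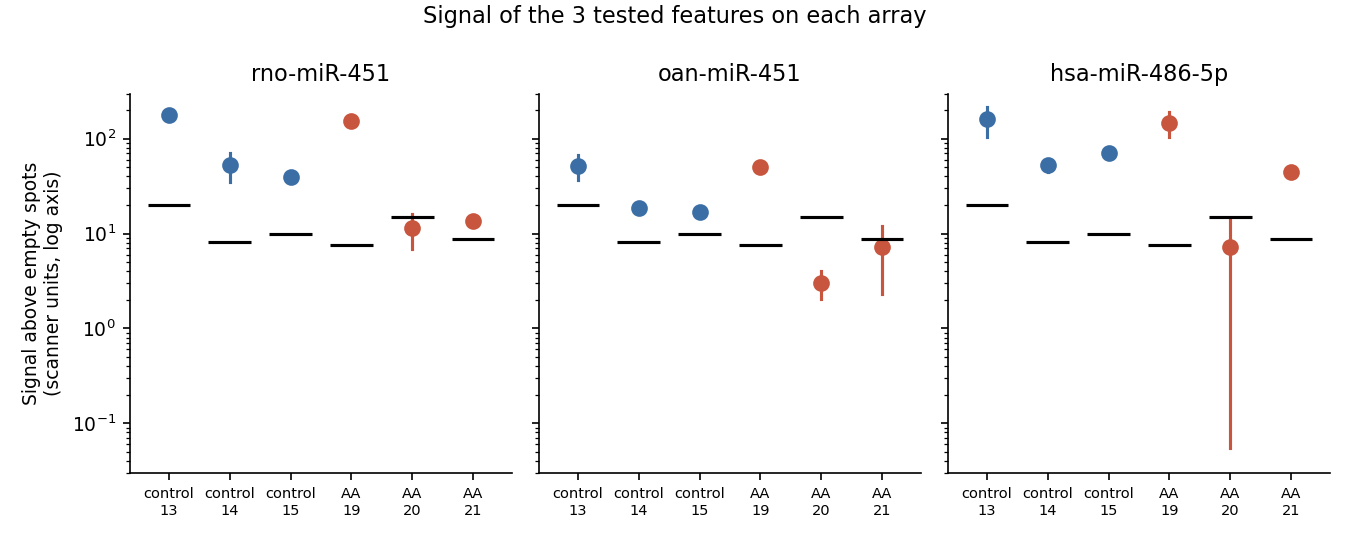
Signal above the empty spots of the same block (scanner units, log axis) for rno-miR-451, oan-miR-451 and hsa-miR-486-5p on each of the 6 arrays, control in blue and AA in red. Points are means of 2 spots, vertical lines join the spots and black bars mark the background limit of each array; rno-miR-451 is above it on 5 arrays, oan-miR-451 on 4 and hsa-miR-486-5p on 5, and all 3 are below it on array AA 20.

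miR-144 was not detected, although its gene neighbours that of miR-451. The signal of rno-miR-144 was -1.48, 4.32 and 3.28 in the controls and 1.05, 6.22 and 2.80 in AA 19, 20 and 21, below the background limit on all 6 arrays. Its deposited values ran from 0.0018 to 4.48, under the intensity of 32 that the study's methods took as the detection limit. Over all 7 miR-144 features 1 of 42 values passed the background limit, pma-miR-144 in control 13 at 20.5 or 3.10 robust SDs, and the deposited values reached 4.86 at most. The groups therefore have no fold change for miR-144: it was not well above background in either, which does not show that it was absent.

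The passenger strands of these hairpins were at background as well. rno-miR-451*, the strand opposite miR-451, had deposited values of up to 6.53 and passed the background limit in control 14. The miR-144* feature of mouse had deposited values of up to 6.11, and hsa-miR-486-3p of up to 8.79, the latter above background on array AA 19.

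**Figure D2:**
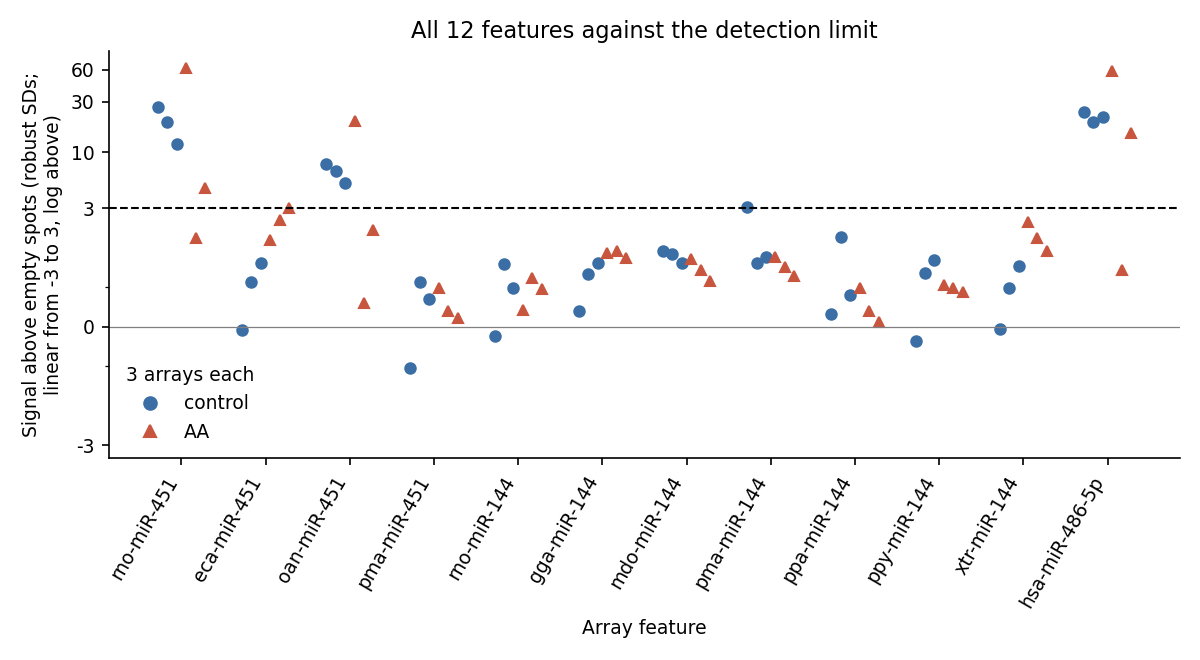
Signal of each of the 12 features on each array in robust SDs of the empty spots (linear between -3 and 3, logarithmic above), control as circles and AA as triangles, with the limit of 3 dashed. Over the 12 features 16 of 72 values pass the limit, 14 of them in rno-miR-451, oan-miR-451 and hsa-miR-486-5p.

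No difference between AA and control passed the test for these miRNAs. The 3 features that reached 32 in the deposited table on at least 1 array entered the limma fit over all 1132 such features, on log2 signal after background correction with an added offset and quantile normalization. The normalized log2 signal of rno-miR-451 was 7.13, 6.86 and 6.80 in the controls and 7.20, 6.21 and 6.37 in AA 19, 20 and 21. Its mean was 6.93 ± 0.18 (SD, n = 3) in control and 6.59 ± 0.53 (SD, n = 3) in AA, a change of -0.34 (SE 0.33, 95% interval -1.12 to 0.44, limma adjusted p = 0.885). The interval runs from 0.461-fold to 1.35-fold of the control level, so that lower and higher levels in AA are both within it. The offset compresses changes of dim features on this scale.

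hsa-miR-486-5p had normalized log2 signals of 6.998, 6.90 and 7.27 in the controls and 7.14, 6.08 and 7.12 in the AA animals. The change was -0.28 (SE 0.36, 95% interval -1.11 to 0.56, limma adjusted p = 0.885), with 1 of 3 AA animals below every control and none above. For oan-miR-451 the change was -0.16 (SE 0.27, limma adjusted p = 0.907).

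None of the 3 tested features passed an adjusted p of 0.05 in limma, where 0.177% of all tested features did (2 of 1132). None had an unadjusted p under 0.05 either, by limma or by an equal-variance test of the same values (the study's methods name a test without its variance form). None had AA values wholly above or below the control values, against 9.98% of all tested features. Their median change was -0.28 with 3 of 3 lower in AA, while over all 1132 features the median was -0.05 and 54.2% were lower. The 3 are not separate observations, since rno-miR-451 and oan-miR-451 read the same RNA. oan-miR-451 entered the fit through 1 array alone, that of AA 19. In bulk tissue, fewer red cells and less of the miRNA per cell cannot be told apart.

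**Figure D3:**
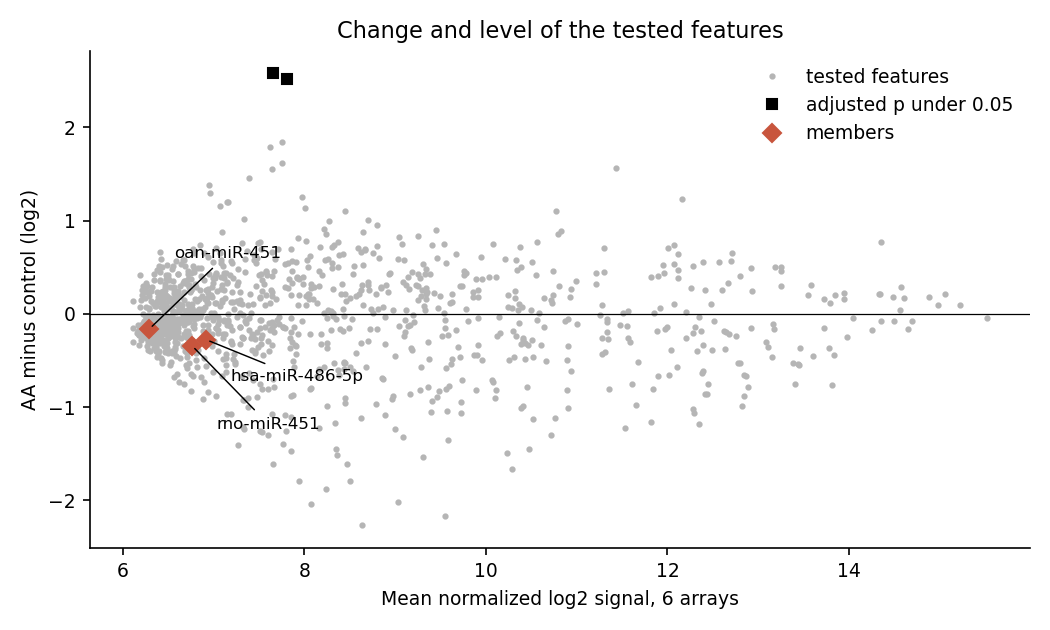
AA minus control (log2) against the mean normalized log2 signal of 6 arrays for the 1132 tested features (grey), with the 2 past the adjusted threshold as black squares and rno-miR-451, oan-miR-451 and hsa-miR-486-5p as red diamonds. The 3 diamonds lie at the dim end of the range, within the cloud of other features.

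The downward shift was smaller without the dim array AA 20. The change of rno-miR-451 was then -0.18 (SE 0.34), that of oan-miR-451 was -0.03 (SE 0.25), and that of hsa-miR-486-5p turned to 0.085 (SE 0.24), with the median of the 3 at -0.03. All limma adjusted p-values without this array lay between 0.877 and 0.966. The direction also depended on the scaling of the arrays: when each array was scaled to the median of the 566 features at 32 or more on all 6 arrays, rno-miR-451 came to 0.16, oan-miR-451 to 0.37 and hsa-miR-486-5p to 0.19, with the median of all tested features at 0.24. Relative to that median, rno-miR-451 stood at -0.08 there, against -0.29 in the fit above. oan-miR-451 stood at 0.13 there, against -0.11, so its direction turned, and hsa-miR-486-5p at -0.05, against -0.22.

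**Figure D4:**
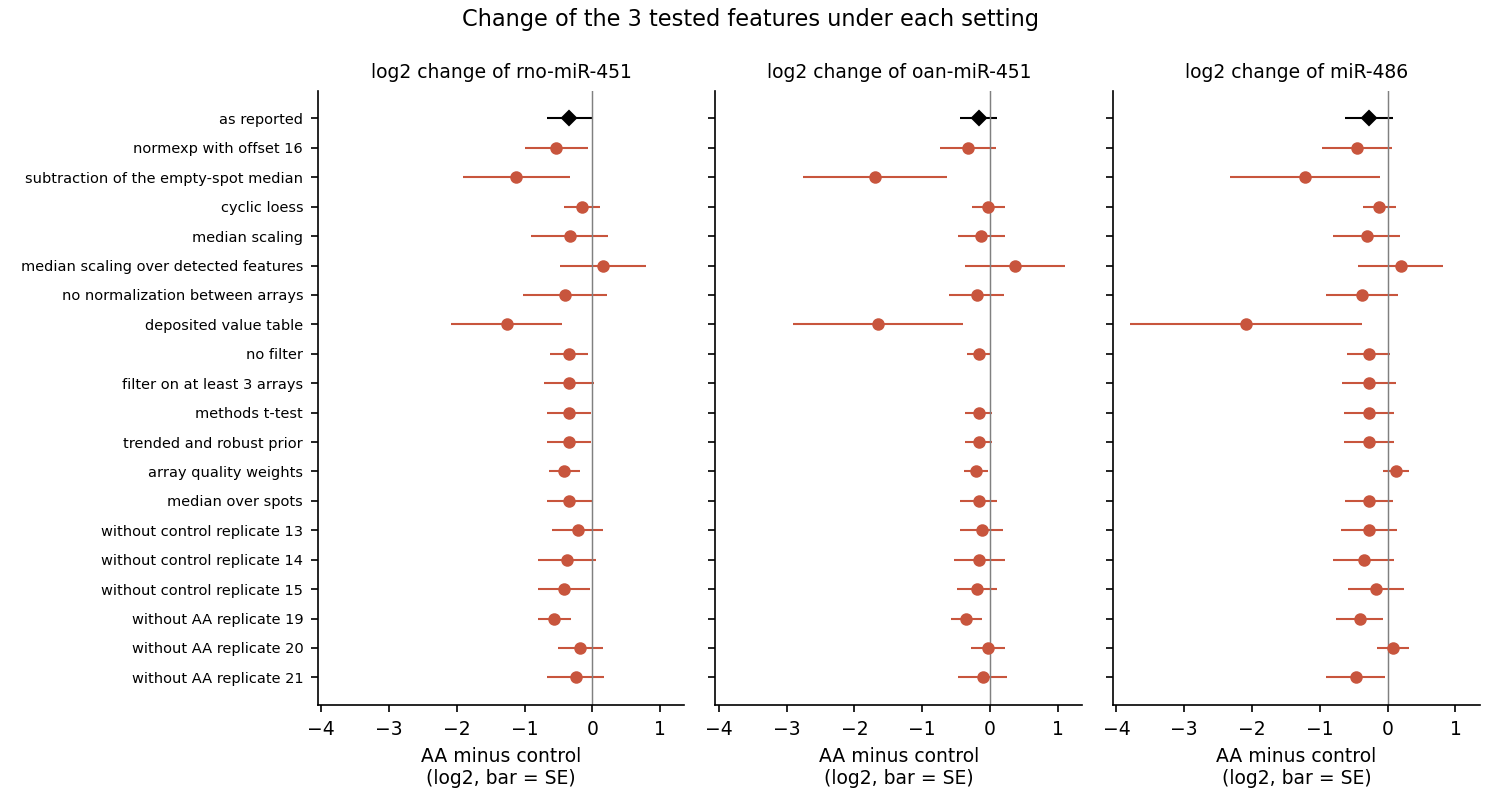
Change of rno-miR-451, oan-miR-451 and hsa-miR-486-5p, AA minus control on the log2 scale, as reported (black diamond) and under each other setting (red points), with bars of 1 SE. For rno-miR-451 the values run from -1.26 with the deposited table to 0.16 with median scaling over detected features, and none of the 3 features passed the adjusted threshold under any setting shown (oan-miR-451 was not among the features at 32 or more on at least 3 arrays).

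A difference between miRNAs of the same array removes the brightness that they share, but only in part on this scale. The added offset compresses a dim feature such as rno-miR-451 more than a bright feature such as rno-miR-23a. miR-23a, the partner used in haemolysis work, was above background on all 6 arrays, at 10070, 5974 and 5554 in the controls and 11575, 621 and 6678 in AA 19, 20 and 21. The normalized log2 difference of rno-miR-451 from rno-miR-23a is given for each animal as its deviation from the control mean, since the level of a feature cannot be set against that of another. It was 0.19, 0.04 and -0.23 in the controls and 0.04, 0.27 and -0.77 in AA 19, 20 and 21. AA minus control was -0.15 (exact two-sided permutation test over 6 arrays, p = 0.9, where 3 against 3 cannot go below 0.1). The low animal was AA 21, and without it the difference turned to 0.12 (exact permutation p = 0.7). The value of AA 20 rests on a miR-451 signal that was not above background, and without that array the difference was -0.36 (exact permutation p = 0.5). With no normalization between arrays it was 0.47, and with cyclic loess 0.031.

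Against miR-486, the other red cell miRNA, miR-451 deviated by 0.26, 0.09 and -0.35 in the controls and by 0.18, 0.26 and -0.63 in the AA animals (difference -0.06, exact permutation p = 0.8). miR-486 against miR-23a deviated by -0.07, -0.05 and 0.11 in the controls and by -0.13, 0.01 and -0.15 in the AA animals (difference -0.09, exact permutation p = 0.3). On array AA 20 neither miR-451 nor miR-486 was above background, so the values of that array are background values. Without it the difference was -0.26 for miR-451 against miR-486 (exact permutation p = 0.6) and -0.10 for miR-486 against miR-23a (exact permutation p = 0.5). With all 6 arrays none of these 3 differences separated the groups, and each had p = 0.9 after Benjamini-Hochberg adjustment of the exact p-values over the 3.

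**Figure D5:**
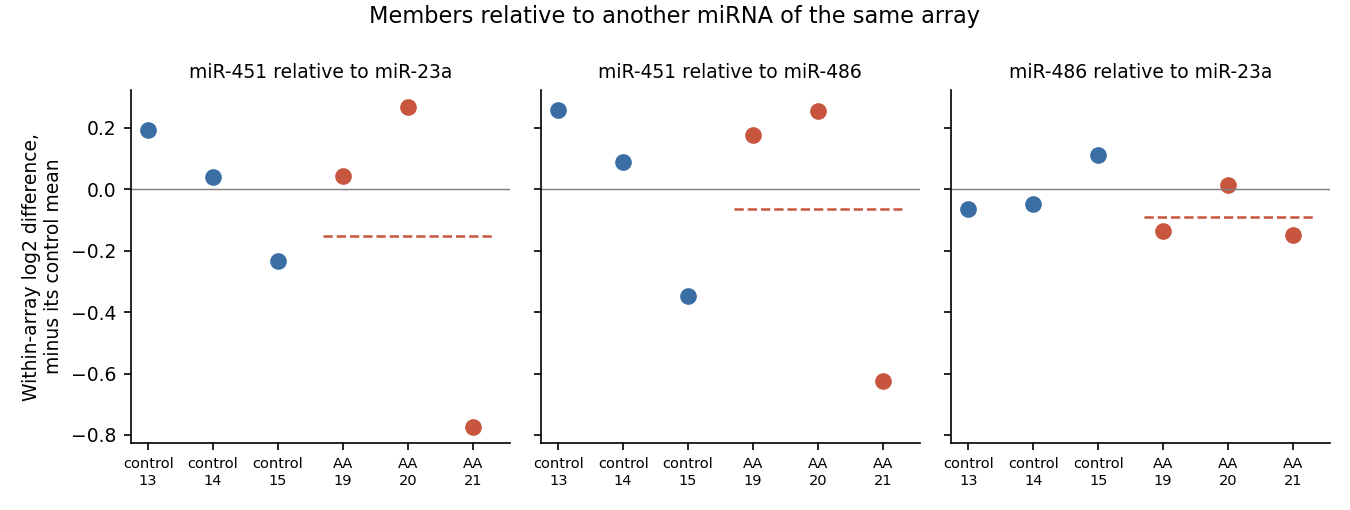
Within-array log2 differences of rno-miR-451 from miR-23a and from miR-486, and of miR-486 from miR-23a, each as its deviation from the control mean, for control (blue) and AA (red) animals, with the AA mean dashed. Animal AA 21 is at -0.77 and -0.63 in the panels of miR-451 and at -0.15 in that of miR-486 against miR-23a.

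A list of other miRNAs that red cells hold in quantity, but that many other cells make too, showed no shared change. Of the 10 listed, 8 were tested, 6 were higher and 2 lower in AA, and 0 passed the adjusted threshold or an unadjusted p under 0.05 in limma. Their median change was 0.06 beside -0.05 over all tested features. miR-16 had deposited values of 1342, 1209 and 1268 in the controls and 1679, 1400 and 1286 in the AA animals, and a log2 change of 0.04 (SE 0.30). miR-92a had 383.6, 606.3 and 588.4 in the controls and 619.7, 454.6 and 609.8 in the AA animals, a change of 0.08 (SE 0.33). In animal AA 21 the median deviation of the 8 from the control mean was 0.27, while rno-miR-451 deviated by -0.56. In animal AA 19 the values were 0.36 and 0.26, and in AA 20 they were -0.38 and -0.72.

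Markers of other cells that the tissue holds are given beside these values, and their part in the result was not tested. The summed signals given for these lists are scanner signals over every listed miRNA with a rat-named feature, tested or not, with values below 0 counted as 0. They were not normalized between arrays, so they carry the brightness of each array. For every list the lowest AA sum is that of the dim array AA 20. Of the 7 leukocyte miRNAs listed, 6 had a feature with a rat name, 3 were tested and 0 passed the adjusted threshold. These 3 did not go one way: the lymphocyte miRNA miR-150 changed by 0.34 (SE 0.26), miR-146a by -0.78 (SE 0.25, unadjusted p = 0.015 and adjusted p = 0.871 in limma) and rno-miR-146b by 0.76 (SE 0.40). The tested miR-146b features of other species were not higher in AA. They changed by -0.14 (hsa-miR-146b-5p), -0.29 (ssc-miR-146b), -0.04 (gga-miR-146b) and -1.61 (dre-miR-146b). The median change of the 3 tested rat-named features was 0.34, and it depends on which miR-146b feature is taken. The summed signal of the 6 was 1636 to 5085 in control and 325 to 5614 in AA. The defining markers miR-142-3p and miR-142-5p were at background, with deposited values of at most 4.12 and 4.82, and the rat-named feature of miR-223 reached 17.4 in AA 19. For miR-223 features of other species were tested as well: hsa-miR-223 changed by 0.07 and oan-miR-223 by 0.37, and neither passed the adjusted threshold. The listed miRNA without a rat-named feature was miR-155, which features of other species covered. Of these, mmu-miR-155 changed by 1.46, hsa-miR-155 by 0.51 and dre-miR-155 by 0.23, and none passed the adjusted threshold. Of the 4 vessel wall miRNAs, 3 were tested and 0 passed, with a median change of 0.06. The summed signal of the 4 was 3107 to 6353 in control and 280.1 to 9192 in AA. The endothelial miRNA miR-126 changed by -0.28 (SE 0.51) and the smooth muscle miRNA miR-143 by 0.06 (SE 0.36).

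Of the 14 kidney epithelial miRNAs, 13 were tested, 10 were lower and 0 passed, with a median change of -0.27. The summed signal of the 14 was 23579 to 47825 in control and 2253 to 58263 in AA. miR-192 changed by -0.28 (SE 0.30) and miR-194, made from the same primary transcripts, by -0.82 (SE 0.34, limma adjusted p = 0.885), the one member of this list with an unadjusted p under 0.05. The median of the 13 stood at -1.42 on array AA 20, against 0.15 and 0.39 on the other AA arrays.

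miR-486 is also a muscle miRNA, and the defining markers of muscle and heart differed in detection. miR-1 and miR-208 were above background on no array, with deposited values of at most 7.79 and 3.33. miR-133a was above it on 2 arrays, miR-133b on 1 and miR-499 on 3, with deposited values of at most 15.3, 11.5 and 21.8, under the limit of 32. The signal of miR-499 was 42.0, 9.10 and 8.87 in the controls and 31.1, 13.0 and 7.65 in AA 19, 20 and 21. It was highest on the arrays of control 13 and AA 19, as the signals of hsa-miR-486-5p and rno-miR-451 were. These were the brightest arrays, with a mean signal over all features of 485 and 483, and this signal is not adjusted for brightness. Of the 6 muscle and heart miRNAs listed, 1 was tested, miR-206, whose deposited values were 392, 511 and 188 in the controls and 66.1, 599 and 344 in AA 19, 20 and 21. AA 19 was its lowest and AA 20 its highest. The change of this rat-named feature was -0.31 (SE 0.54). The tested miR-206 features of other species went the other way, mdo-miR-206 by 0.31 and ssc-miR-206 by 0.10, and none passed the adjusted threshold. The summed signal of the list was 189.7 to 1115 in control and 147.5 to 351 in AA.

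Of the 179 tested rat features outside the family, those whose normalized log2 signal followed rno-miR-451 most closely over the 6 arrays were rno-miR-290 (r = 0.903), rno-miR-181b (r = 0.895), rno-miR-29c (r = 0.891), rno-miR-181d (r = 0.881) and rno-miR-505 (r = 0.872). The median r over the 179 was 0.258. These are descriptions over 6 points from the same arrays, of which AA 20 is the lowest for all 5. Without AA 20 the values were 0.821, 0.946, 0.937, 0.784 and 0.759. hsa-miR-486-5p followed rno-miR-451 less closely, with r = 0.607 over 6 arrays and -0.17 without AA 20.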

How the data were processed

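Kidney RNA of 3 control and 3 AA rats was hybridised to 1-colour Cy3 miRNA arrays, 1 per animal. Groups were taken from the labels. The scanner values deposited are median spot intensity on 15066 spots per array, neither background-corrected nor normalized. The intensity table deposited by the authors was background-subtracted and LOWESS-normalized. Its LOWESS reference is not given in the sources used here. The deposited table was used for the filter and as an alternative.

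Scanner intensity was corrected with normexp (offset 50, all spots), converted to log2, quantile-normalized over non-control spots and averaged per feature. Features at 32 or more in the deposited table on at least 1 array were tested (1132), AA against control, with limma (version 3.58.1, R version 4.3.3; functions lmFit and eBayes) and p-values adjusted over all of them after Benjamini and Hochberg. The background limit was 3 robust SDs (scaled median absolute deviation) of the 2814 empty spots, a definition of this work. Within-array differences were compared by exact permutation of the 6 arrays. The fit was tested on simulated data. The number of arrays and the signal over background limit the precision.

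Members in full, the miR-486 feature, passenger strands, the 5 most correlated rat features and the first 2 tested of each list are named. miR-142, miR-146b, miR-155, miR-204, miR-223, miR-1, miR-133a, miR-133b, miR-208 and miR-499 were named after their values were seen. The same holds for the features of other species given for listed miRNAs. Members and lists were chosen with earlier results of these data known. Rat sequences and coordinates came from RefSeq (GRCr8), where 2 of 12 targets had an identical mature sequence. Alternatives covered background correction, normalization, filter, test, array weights, spot averaging, the deposited values and leaving out each array.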

Additional observations from a re-analysis of the deposited data

Results flagged for a closer look

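A horse feature whose name resembles the family but that the naming rule leaves out, eca-miR-451a, had a deposited value of 72.4 in animal AA 19, against 2.68 to 9.12 in the controls and 3.21 and 4.14 in AA 20 and AA 21. It drew notice as signal above the control level in a feature outside the comparisons. The first 20 bases of its target are those of rno-miR-450a, so it does not read miR-451. The deposited values of rno-miR-450a were 15.7, 15.5 and 17.3 in the controls and 102.8, 0.0066 and 2.71 in AA 19, 20 and 21. The change of eca-miR-451a between the groups was 0.24 on the log2 scale (limma adjusted p = 0.885).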

How the results depend on the processing

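No paired analysis was possible because the groups share no replicate numbers. Under all 19 alternatives 0 of the tested members passed the adjusted threshold. The change of rno-miR-451 stayed negative in 18 of 19 (-1.26 to 0.16, limma adjusted p 0.336 to 0.994), and ran from -0.56 to -0.18 when 1 array was left out. That of miR-486 stayed negative in 16 of 19 (-2.09 with the deposited table) and turned to 0.12 with array weights, to 0.085 without AA 20 and to 0.19 with median scaling over detected features, with -0.47 to 0.085 when 1 array was left out. oan-miR-451 turned to 0.37 under that same scaling. Median scaling was planned on all spots, where rno-miR-451 was -0.34, miR-486 -0.31 and oan-miR-451 -0.13 with the median of all tested features at -0.26. The version over detected features was chosen after those values had been seen, and without any scaling that median was -0.32.

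The median change of the tested members was -1.22 with subtraction of the empty-spot median, -1.65 with the deposited table and 0.19 with median scaling over detected features, and -0.41 to -0.027 when 1 array was left out. miR-451 relative to miR-23a turned to 0.031 with cyclic loess and to 0.47 with either median scaling or no normalization, and ran from -0.36 to 0.12 when 1 array was left out. The differences of miR-451 from miR-486 and of miR-486 from miR-23a were computed without AA 20 after the data had been seen and kept their direction. The count of all tested features past the threshold, 2, was 0 with cyclic loess, either median scaling or no normalization (70, 6, 24 and 5 at an unadjusted p under 0.05), 44 with array weights, and 0 to 3 when 1 array was left out. The cause of these differences was not tested. rno-miR-144 was below background in both groups and is given no fold. With no filter it was fitted with the other members, and 0 of 12 passed the adjusted threshold. The files hold no local background, so the empty-spot median was subtracted instead. Signals near the background limit on array AA 20 limit every member.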
